A study of Mus musculus with 2 samples.

Results

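The cytosolic ribosomal protein genes, which encode the protein part of the large and the small ribosomal subunit, were followed through tumor-infiltrating GR1+ myeloid cells. They were taken by symbol, as names starting with Rpl or Rps and a digit together with Rplp0, Rplp1, Rplp2 and Rpsa, without pseudogene names and without the Rps6k kinases. The symbols of 86 genes matched, and the 85 with at least 10 unique molecular identifiers (UMIs, each counting 1 captured mRNA molecule) in the retained barcodes were described, of 14000 genes with that number and 32285 genes listed. Rpl10l, with 1 UMI in each library, was left out. Just inside the limit were Rpl39l with 19 and 4 UMIs and Rpl3l with 20 and 40. The genes were chosen by name and not on a difference between groups, but with earlier results of these data known. The naming rule does not take in Fau and Rack1, whose products are also ribosomal proteins, and it takes in Rps19bp1, whose product binds a ribosomal protein and is not a part of the ribosome.

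The cells came from BALB/c mice bearing untreated tumors of 4T1, a mouse mammary carcinoma line. The mice were 6 to 8 weeks old by the deposited description, while the study's text gives a higher age at tumor injection. 4T1P is the parental line, whose tumors do not respond to anti-PD1, and 4T1M was derived from it by exposure to a carcinogen and gives tumors that respond. Cells positive for GR1, a surface antigen of granulocytes and monocytes, were pulled out of the tumor suspensions on magnetic beads and run on 10x Genomics droplets, with 5 mice pooled per sample by the deposited description, while the study's text gives a smaller number. Each condition was 1 pooled library, so mice cannot be told apart, the tumor line and the library cannot be told apart, and no test between 4T1P and 4T1M was possible. All intervals below are at 95% and cover counting error only.

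The libraries held 2947 (4T1P) and 5004 (4T1M) barcodes with 21855657 and 24303957 UMIs, and 1726 and 3461 barcodes were retained, those in which 500 to 5000 genes were seen and mitochondrial UMIs made up no more than 10%. Neutrophils were barcodes with at least 1.5% of UMIs from S100a8 and S100a9 and under 0.5% from C1qa, C1qb, C1qc and Apoe. Macrophages had under 1.5% from S100a8 and S100a9 and at least 0.3% from those complement genes, Apoe, Csf1r, Cd68 and Fn1. This gave 612 and 1686 neutrophils, 798 and 976 macrophages, and 316 and 799 barcodes in neither class. The names held against markers the rule had not used. The 8 other neutrophil genes, among them Csf3r, Cxcr2 and Retnlg, summed to 17404 and 14569 CPM (UMIs of the gene per 1000000 UMIs of the class) in neutrophils against 323 and 437 CPM in macrophages. Adgre1, Ms4a7, Mrc1 and Lgmn summed to 2491 and 1909 CPM in macrophages against 75.1 and 102 CPM in neutrophils, and Ctsb, a lysosomal protease found in both, had 2051 and 1870 against 783 and 836 CPM. Of all barcode sequences, 5 occurred in both libraries, 3 of them among the retained.

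Most ribosomal proteins are needed in equal numbers, and in most growing cells their mRNAs are among the most abundant. Many of these mRNAs begin with a C followed by an unbroken run of pyrimidines (the 5′ terminal oligopyrimidine tract), through which mTOR signaling and LARP1 set their translation and stability together. Mature neutrophils are short-lived cells that leave the bone marrow with most of their granule proteins already made, whereas macrophages keep growing and secreting in tissue. The data below are mRNA counts, and neither ribosomes nor protein synthesis were measured.

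The 85 genes lay on 19 chromosomes and all were annotated as protein coding. RefSeq promoters (GRCm38.p6) were found for 65 of them. At an annotated start, 14 of the 65 (21.5%) had a C followed by at least 4 more pyrimidines, against 3.01% of 27025 genes. The letters CTTTCC on the gene's strand within 50 bases after the start were present in 26.2% of the ribosomal protein genes and 2.46% of all genes, and CTCTTTC, which can overlap it, in 15.4% and 0.677%. CTTCCG, searched on both strands of the whole 300-base window, was present in 67.7% and 18.8%. The first 4 sequences below are start regions with a long tract, shown because this tract is the feature these mRNAs are known for. The last 2 are those of Rps9 and Rpl10a, the genes with the smallest and the largest difference between macrophages and neutrophils described further on. Each runs from 10 bases before the annotated start, 5′ to 3′ on the gene's strand, and the tract is in capitals where the annotated start opens one.
Rpl15 (chr14:18270967-18270996, minus strand): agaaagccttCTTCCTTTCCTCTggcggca
Rps10 (chr17:27635225-27635254, minus strand): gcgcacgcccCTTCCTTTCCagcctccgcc
Rps6 (chr4:86857348-86857377, minus strand): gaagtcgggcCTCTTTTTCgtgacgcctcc
Rpl28 (chr7:4792955-4792984, plus strand): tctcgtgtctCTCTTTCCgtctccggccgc
Rps9 (chr7:3704031-3704060, plus strand): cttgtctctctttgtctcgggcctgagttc
Rpl10a (chr17:28328461-28328490, plus strand): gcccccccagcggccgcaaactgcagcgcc
The tract of Rpl15 was 13 bases long, that of Rps10 was 10, that of Rps6 was 9 and that of Rpl28 was 8. An annotated start that misses the true one by a base can hide a tract. Of the genes with a tract at an annotated start, 11 had at least 100 CPM. Their median log2 ratio of macrophages to neutrophils was 2.14 in 4T1P and 2.39 in 4T1M. The 45 matched genes of that level with none found at a start had 2.15 and 2.39. Some of the 45 may carry a tract beside the annotated start, so these medians do not set genes with a tract against genes without one.

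Ribosomal protein mRNAs took a small part of the mRNA of tumor neutrophils and a large part of that of tumor macrophages. The median neutrophil gave 2.40% of its UMIs to them in 4T1P and 2.26% in 4T1M, with lowest and highest values of 0.548% and 21.7% in 4T1P and 0.343% and 17.2% in 4T1M. The median macrophage gave 14.5% in 4T1P, between 1.99% and 46.7%, and 14.0% in 4T1M, between 0.802% and 39.5%. The ranges overlapped, but the 90th percentile of neutrophils, 4.26% and 4.25%, lay below the 10th percentile of macrophages, 8.10% and 7.49%. Summed over barcodes, the share was 3.28% (81982 of 2502947 UMIs) and 2.85% (187372 of 6580005) in neutrophils, and 13.8% and 13.5% in macrophages.

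**Figure D1:**
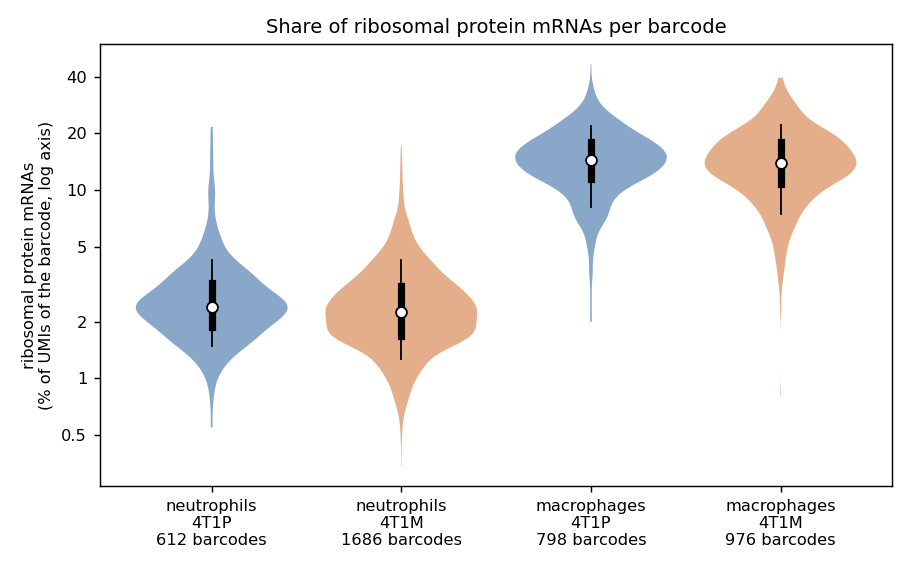
Share of UMIs from ribosomal protein genes per barcode (percent, log axis) for each class and library. White points are medians, thick bars the quartiles and thin bars the 10th to 90th percentiles. The neutrophil medians are 2.40% and 2.26%, the macrophage medians 14.5% and 14.0%, and both neutrophil distributions have a thin upper tail that reaches the macrophage range.

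The pooled share was thus 4.22-fold higher in macrophages than in neutrophils in 4T1P (log2 ratio 2.08, interval 2.07 to 2.09) and 4.74-fold higher in 4T1M (2.24, 2.24 to 2.25). Macrophage barcodes were deeper, with medians of 9727 and 9213.5 UMIs against 3054.5 and 2957.5. Thinned to 1000 UMIs per barcode, the medians were 2.4% and 2.2% in neutrophils and 14.4% and 13.8% in macrophages, with 0 and 4 neutrophils and 26 and 37 macrophages too shallow to enter. At that depth the median neutrophil had UMIs of 18 and 17 of the 85 genes and the median macrophage of 59 and 58. S100a8 and S100a9 alone hold a large part of neutrophil UMIs, and without them in the totals the log2 ratios were 1.83 and 2.04. TMM scaling, which sets the bulk of genes level between the classes, lowered every ratio of this kind by 0.93 in 4T1P and 0.89 in 4T1M and left 1.15 and 1.35. The 4 macrophage markers summed above stood in neutrophils at 3.02% and 5.33% of their macrophage level. The pooled ribosomal protein share of neutrophils was a fraction of 0.237 (3.28% against 13.8%) and 0.211 (2.85% against 13.5%) of that of macrophages. How much macrophage mRNA the neutrophil barcodes carried was not tested.

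The other retained barcodes spanned a wider range. Barcodes in neither class with T cell genes had medians of 24.7% (n = 73) and 29.5% (n = 96), the highest of any group compared, and those with B cell genes 20.7% (n = 40) and 18.3% (n = 41). Barcodes that passed neither threshold and held no such genes had 4.70% (n = 193) and 3.52% (n = 611), between the 2 classes. Of the barcodes left out, those above 5000 detected genes had 15.5% (n = 136) and 15.3% (n = 49), close to macrophages. Those above the mitochondrial limit had 2.88% (n = 420) and 2.73% (n = 472), and those under 500 genes 2.85% (n = 665) and 3.51% (n = 1022).

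A few neutrophil barcodes held a large part of the ribosomal protein UMIs of their class. Among the barcodes with the highest Scrublet scores, a score for barcodes that resemble 2 cells, were 11 neutrophils of 4T1P and 46 of 4T1M. The score was made from all genes, ribosomal protein genes included, so it is not independent of the share. The 11 gave 20.5% of the neutrophil ribosomal protein UMIs of 4T1P from 4.26% of the neutrophil UMIs, and the 46 gave 11.3% from 5.59%. Their pooled ribosomal protein share was 15.8% in 4T1P and 5.76% in 4T1M, against 2.72% and 2.67% in the other neutrophils. The 11 also held 1333 CPM of the epithelial genes Epcam, Krt8, Krt18 and Krt14, against 13.4 CPM in the other 4T1P neutrophils, and 507 CPM of the 4 macrophage markers against 55.9. In 4T1M the corresponding values were 38.1 against 11.4 CPM of epithelial genes and 272 against 91.6 CPM of macrophage markers. Without these barcodes the medians over neutrophils were 2.39% and 2.22%. Without them and the 17 and 39 macrophages of highest score, the pooled ratio of macrophages to neutrophils was 2.35 and 2.34 on the log2 scale.

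Single genes differed widely in level. A UMI counts a molecule once whatever its length, so CPM were not divided by length. In macrophages, Rpl23 (large subunit) led with 3798 and 3675 CPM, before Rps27a, which is made as a fusion with ubiquitin, at 3765 and 3653 CPM. The leading gene of neutrophils was Rps9, a small subunit protein that binds early in assembly, with 2465 CPM in 4T1P and 2229 CPM in 4T1M, and Rps27a came next with 1333 and 1173 CPM. The order of the 85 levels was nearly the same in both libraries (Spearman's rho across genes 0.99 in neutrophils and 0.99 in macrophages), and less alike between the classes (0.91 in 4T1P and 0.90 in 4T1M). These genes share libraries and barcodes, and the correlations describe them only.

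**Figure D2:**
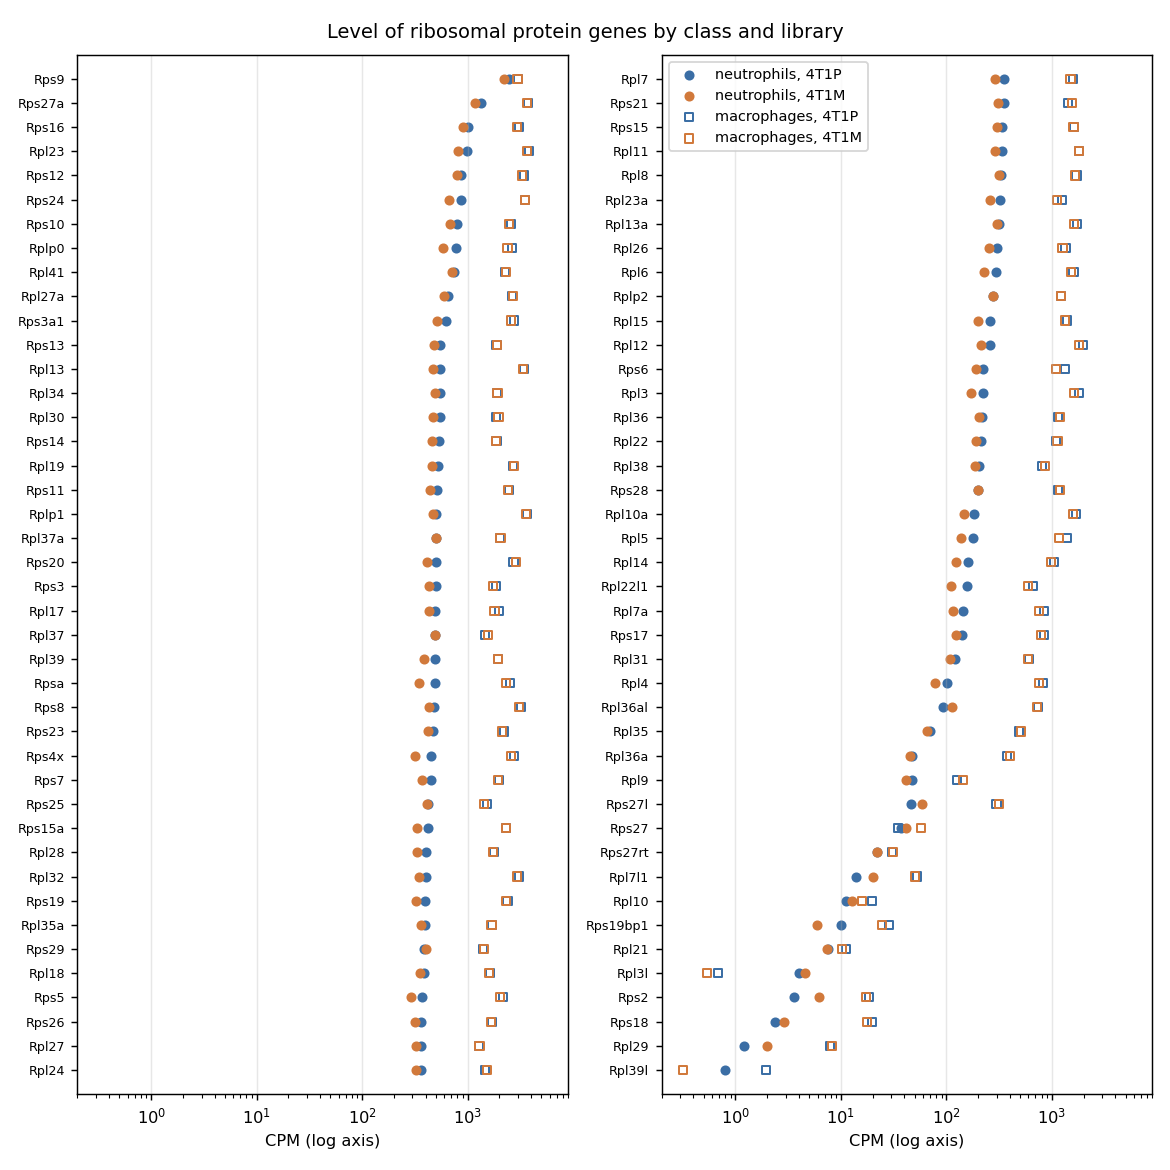
Level of 84 of the 85 ribosomal protein genes (CPM, log axis) in neutrophils (filled circles) and macrophages (open squares) of 4T1P (blue) and 4T1M (orange), sorted by the level in 4T1P neutrophils, the upper 42 on the left. Squares lie to the right of circles for nearly all genes. Rps9 at the top has the smallest gap among the abundant genes, 2465 and 2229 against 3023 and 2977 CPM, and under TMM or DESeq2 scaling its order is turned. Rpl39l is at 0 in 4T1M neutrophils, where no point is drawn.

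Below 100 CPM in every class and library were 11 genes, Rpl10, Rpl21, Rpl29, Rpl39l, Rpl3l, Rpl7l1, Rps2, Rps18, Rps19bp1, Rps27 and Rps27rt. Among them are several genes whose products are part of every ribosome. The genome holds near-identical copies of many ribosomal protein genes, and counting leaves out reads that match more than 1 gene. In the GENCODE M21 transcripts (GRCm38), windows of 90 bases in the last 400 bases were matched to transcripts of other genes listed in the count table. All windows of Rpl10 and Rpl9 were shared with another listed gene, 98.4% of those of Rps27, 89.8% of those of Rps27rt, 70.7% of those of Rpl35 and 61.7% of those of Rpl36a, so the levels of these 6 genes are uncertain. For Rpl21, Rplp2 and Rps18 the share was 42.1%, 43.7% and 47.9%. Of the 11 low genes, which had 23 to 1646 UMIs in retained barcodes, 3 shared at least 50% of their windows with a listed gene, and of the other 74 genes 3 did. Windows shared only with annotated genes that the table does not list were more common, at 83.3% of those of Rps2, 94.5% of those of Rpl10a and 54.0% of those of Rps9. Whether such copies took reads from these genes was not tested. An exon of Rpl19 overlapped Gm11629 on the same strand.

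Of the 74 genes with at least 100 CPM in a class, 73 were at least 1.5-fold higher in macrophages than in neutrophils in 4T1P and 73 in 4T1M, and 0 were as much lower. Among all genes of that level, 48.7% were higher in 4T1P and 45.7% in 4T1M, and 28.9% and 30.2% were lower. The median log2 ratio of the ribosomal protein genes was 2.19 and 2.39, against 0.50 and 0.40 over all genes tested. Under TMM scaling, where 31.2% of all genes in 4T1P and 29% in 4T1M were higher and 46.3% and 48.3% lower, 70 and 73 of the 74 were higher and 1 and 0 lower.

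The exception was Rps9. It had 3023 CPM in macrophages and 2465 CPM in neutrophils of 4T1P, and 2977 and 2229 CPM in 4T1M, so its log2 ratio was 0.29 (interval 0.25 to 0.34) and 0.42 (0.39 to 0.45), and under TMM scaling it turned to -0.63 and -0.48. It made up 7.52% and 7.83% of the ribosomal protein UMIs of neutrophils and 2.19% and 2.21% of those of macrophages, a comparison that no scaling changes. In barcodes with T cell genes it was 1.95% and 1.84%, and in those with B cell genes 2.38% and 2.22%. Rps9 ranked first of the 85 in neutrophils of both libraries and 10 and 8 in macrophages. Without the highest doublet scores in both classes its log2 ratio in 4T1P was 0.34. The gene lies at chr7:3703993-3706897 on the plus strand. Fau, outside the naming rule, encodes a fusion that is cut to the small subunit protein eS30, and stood, before any TMM shift, at 4073 CPM in neutrophils of both libraries and 3687 and 4029 CPM in macrophages, with log2 ratios of -0.14 (-0.18 to -0.11) and -0.02 (-0.04 to 0.01).

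By the mean of both libraries, Rps27a (1.64 in 4T1M) and Rpl37 (1.56 and 1.67) were among the next smallest differences. Rpl9, of uncertain level, had 1.44 and 1.82. At the other end, Rpl10a had 184 and 146 CPM in neutrophils and 1690 and 1588 CPM in macrophages, a log2 ratio of 3.20 (3.06 to 3.33) in 4T1P and 3.44 (3.35 to 3.54) in 4T1M. Rpl3, a protein of the peptidyl transferase region, had 3.04 and 3.25, Rpl4 3.02 and 3.27 and Rpl36a, of uncertain level, 2.99 and 3.14. Rps9 was the lowest and Rpl10a the highest in each library. Without the highest doublet scores in both classes the 4T1P values were 3.97 for Rpl10a and 3.86 for Rpl3.

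**Figure D3:**
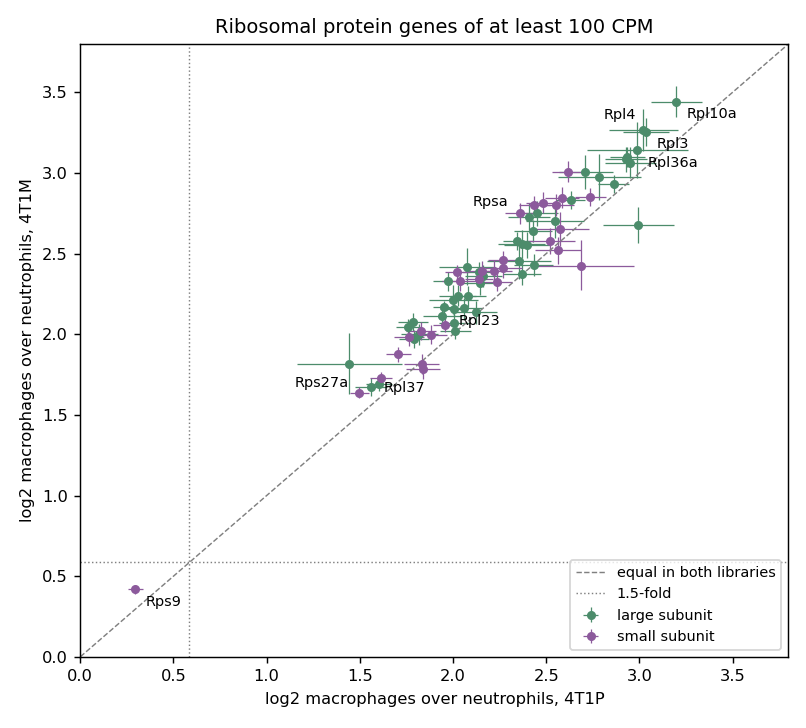
Log2 ratio of CPM in macrophages to neutrophils for 73 of the 74 genes of at least 100 CPM, in 4T1P (x axis) and 4T1M (y axis), with 95% counting intervals and color by subunit. Rps9 lies alone at 0.29 and 0.42, inside the 1.5-fold lines, and turns negative under TMM or DESeq2 scaling. The others range up to 3.20 and 3.44 for Rpl10a, and most lie above the diagonal. All barcodes of the classes are used here. Without the highest doublet scores in both classes the pooled log2 ratio was level, at 2.35 in 4T1P and 2.34 in 4T1M.

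By symbol, 51 of the genes were assigned to the large subunit and 34 to the small, with Rps19bp1 counted among the latter. Large subunit genes held 49.2% and 49.4% of the ribosomal protein UMIs of neutrophils and 53.7% and 53.9% of those of macrophages. Among the small subunit genes, Rps9 alone held 7.52% and 7.83% in neutrophils and 2.19% and 2.21% in macrophages. The subunit shares were not computed without it. The median log2 ratio of macrophages to neutrophils was 2.14 and 2.35 for the large subunit genes and 2.19 and 2.36 for the small. The proteins of the stalk, which recruits elongation factors, were unequal. Rplp0, its base, had a ratio of 1.76 and 2.05, Rplp2 2.12 and 2.14, and Rplp1 2.86 and 2.93. For Rplp2, 43.7% of the windows at the 3′ end are shared with a listed gene, which limits its value. Rplp1 had 507 and 471 CPM in neutrophils and 3682 and 3593 CPM in macrophages. Rpsa, a small subunit protein also described as a laminin receptor, had 491 and 347 CPM in neutrophils and 2522 and 2335 CPM in macrophages.

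Several ribosomal proteins have a second gene used mainly in certain tissues. Rpl3l, the striated muscle counterpart of Rpl3, had few UMIs but went against the others: it had 4.00 CPM (10 UMIs) and 4.56 CPM (30 UMIs) in neutrophils and 0.684 and 0.535 CPM (6 and 5 UMIs) in macrophages. Its log2 ratio was -2.55 (-4.29 to -0.94) in 4T1P and -3.09 (-4.81 to -1.71) in 4T1M. Rpl22l1 made up 42.4% and 36.4% of the UMIs of the pair Rpl22l1 and Rpl22 in neutrophils and 37.5% and 34.2% in macrophages. Rpl36al made up 66.5% and 71.2% of its pair with Rpl36a, a gene of uncertain level, in neutrophils and 66.6% and 64.2% in macrophages. Rps27l, a p53 target, made up 55.8% and 58.8% of its pair with Rps27 in neutrophils and 89.7% and 84.5% in macrophages, with Rps27 among the genes of uncertain level. Rpl7l1 stood at 14.0 and 20.4 CPM in neutrophils and 52.5 and 50.6 CPM in macrophages. Rpl39l, a gene of the testis, had 2 and 0 UMIs in neutrophils and 17 and 3 in macrophages. Rps19bp1 had 9.99 and 5.93 CPM in neutrophils and 28.5 and 24.6 CPM in macrophages.

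Between the libraries, the pooled share of neutrophils was lower in 4T1M than in 4T1P, with a log2 ratio of -0.20 (-0.21 to -0.19). Of 70 genes with at least 100 CPM in neutrophils, 25 were at least 1.2-fold lower in 4T1M and 1 was as much higher, against 11.7% lower and 21.8% higher among all genes of that level. The median log2 ratio was -0.21, against 0.02 over all genes. The pooled difference shrank when few barcodes were left out. Without the 11 and 46 neutrophils of highest doublet score the pooled ratio was -0.02, and 2 of 68 genes were lower and 2 higher. The score took in the ribosomal protein genes, so this removal can itself lower the share. The median per barcode moved little, from 2.40% and 2.26% with all neutrophils to 2.39% and 2.22% without these. Without neutrophils of 8000 UMIs or more, 52 and 122 barcodes, the pooled ratio was -0.13, with 8 of 67 genes lower. With neutrophils held to at least 5% of UMIs from S100a8 and S100a9 it was -0.06, with 3 of 67 lower. The share over all genes was not counted in these alternatives, so their gene counts have no background beside them. Of the markers of other cells, the 4 epithelial genes summed to 69.5 CPM in neutrophils of 4T1P and 12.9 CPM in those of 4T1M, and the 2 red cell genes to 3.20 and 133 CPM, with none of these genes at 0. The 5 B cell genes were near level, at 20.4 and 18.1 CPM with 0 and 1 of them at 0. The 7 T cell genes had 30.4 and 23.7 CPM with 4 and 3 at 0. Nearly all of that sum was the single gene Cd3d, with 29.2 and 22.5 CPM. The part of these cells in the result was not tested beyond the removals above.

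Rpl22l1 had the lowest ratio, with 158 CPM (395 UMIs) in 4T1P and 110 CPM (724 UMIs) in 4T1M, a log2 ratio of -0.52 (-0.70 to -0.34). Rpsa followed at -0.50 (-0.60 to -0.40), Rps4x, the X-linked small subunit gene, at -0.49 (-0.60 to -0.39) and Rplp0 at -0.42 (-0.50 to -0.34). Without the barcodes of highest doublet score these values were -0.25 for Rpl22l1, -0.28 for Rpsa, -0.16 for Rps4x and -0.28 for Rplp0. Rpl36al was the only gene past the fold upward, with 93.5 CPM in 4T1P and 113 CPM in 4T1M, a log2 ratio of 0.27 (0.05 to 0.49), which fell to -0.02 after thinning and was 0.42 without the highest doublet scores. Rps29, Rps28 and Rplp2, the next in order, had ratios of 0.06, 0.01 and 0.00 with intervals that included 0. For Rpl10a, -0.33 with all neutrophils became 0.26 without the highest doublet scores, and for Rpl3, -0.38 became 0.25.

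In macrophages the libraries lay close together. The pooled log2 ratio of 4T1M to 4T1P was -0.04 (-0.04 to -0.03), which turned to 0.0042 with macrophages held to at least 1% of UMIs from their genes. None of the 74 genes passed 1.2-fold in either direction, 0 higher and 0 lower, against 11.5% and 8.95% of all genes of that level. The lowest ratio, -0.2629, lay just inside that fold. At a mitochondrial limit of 5%, with no upper limit on genes or without mitochondrial UMIs, 2 genes were lower. The share over all genes was not counted in these alternatives. The median was -0.04 against -0.01 over all genes. The lowest ratios were those of Rps6, the S6 kinase substrate, with 1323 and 1103 CPM (-0.26, interval -0.30 to -0.22) and of Rpl5, a partner of 5S rRNA that also binds Mdm2, with 1390 and 1161 CPM (-0.26, -0.30 to -0.22). Rpl22l1 (-0.18) and Rpl3 (-0.16) came next. Rpl9 had the highest, with 127 and 145 CPM (0.19, 0.08 to 0.31), and its 3′ end is shared with another listed gene. Rps21, Rpl37 and Rpl36a, the last of uncertain level, followed with 0.11 each. Rps27 lay below the level limit and had 34.4 and 57.7 CPM, a log2 ratio of 0.74 (0.54 to 0.95), with its level uncertain as given above.

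**Figure D4:**
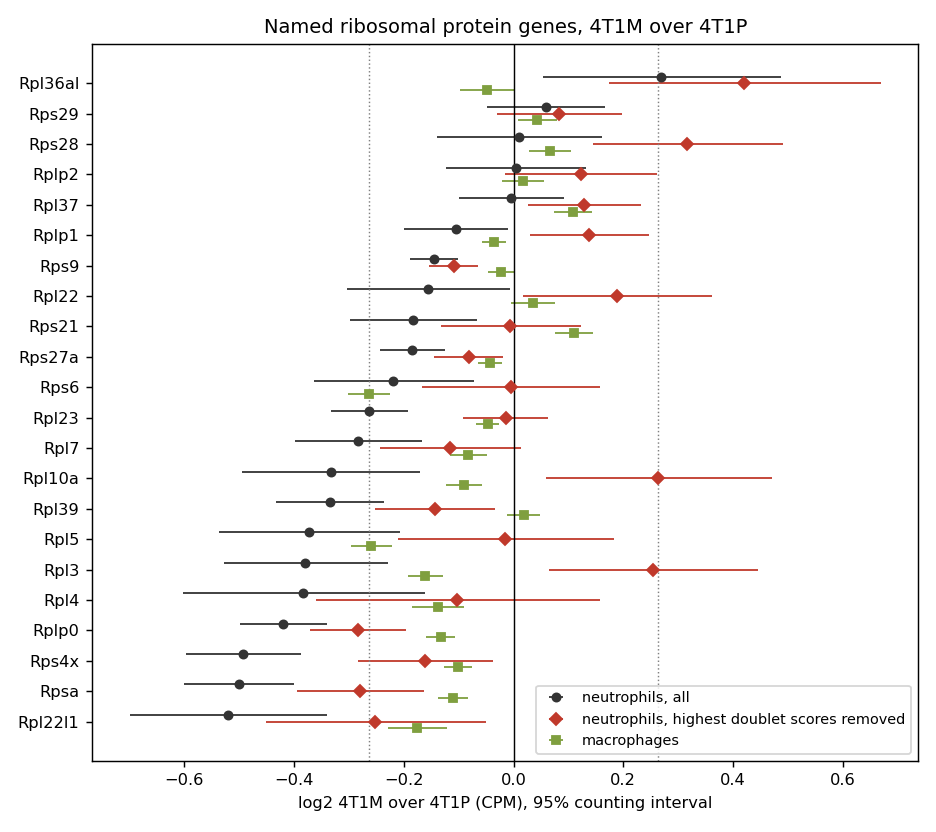
Log2 ratio of CPM in 4T1M to 4T1P for the named genes of at least 100 CPM in neutrophils, in all neutrophils (black circles), in neutrophils without the highest doublet scores (red diamonds) and in macrophages (green squares), with 95% counting intervals. Dotted lines mark 1.2-fold. Most circles lie left of 0 and move right when the barcodes of highest score are left out, as for Rpl10a from -0.33 to 0.26. The score was made with ribosomal protein genes included. No square passes a dotted line, but that of Rps6, at -0.2629, lies just inside it.

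Within neutrophils, barcodes rich in interferon genes (at least 0.5% of UMIs from Ifit1, Ifit2, Ifit3, Isg15 and Rsad2) gave less of their UMIs to ribosomal protein genes in both libraries. They were 63 barcodes of 4T1P (10.3% of neutrophils) and 247 of 4T1M (14.7%). Their median share was 2.18% (quartiles 1.60% and 2.76%) against 2.44% (1.90% and 3.21%) in the other neutrophils of 4T1P. In 4T1M it was 1.93% (1.49% and 2.48%) against 2.32% (1.71% and 3.18%), so the quartile ranges overlapped in both libraries. Median depth was alike, 2993 and 3057 UMIs in 4T1P and 2888 and 2977 in 4T1M. The relation was not confined to neutrophils. Spearman's rho across barcodes between the ribosomal protein and interferon gene shares was -0.15 and -0.17 in neutrophils. In macrophages it was -0.19 and -0.28. Nor was it particular to interferon genes. In neutrophils the share of S100a8 and S100a9 had -0.21 and -0.22, UMIs per barcode -0.15 and -0.09, and the mitochondrial share -0.01 and 0.02. In macrophages UMIs per barcode had -0.26 and -0.27 and the mitochondrial share -0.33 and -0.19. Adgre1, Ms4a7, Mrc1 and Lgmn together had 0.13 and 0.13 in neutrophils and -0.38 and -0.19 in macrophages. Barcodes rich in the secondary granule genes Camp, Ngp and Ltf, a mark of immature neutrophils, were few, 24 and 50, and had medians of 2.38% and 2.39% against 2.41% and 2.25% in the others. They were much deeper, with medians of 14889.5 and 12053 UMIs. Among the genes with at least 100 UMIs in neutrophils of the library, Rpsa had the highest ratio of granule-rich to other neutrophils, 1.22 (1.04 to 1.40) and 1.39 (1.25 to 1.53) on the log2 scale, and Rps4x had 0.49 (0.27 to 0.70) and 0.76 (0.59 to 0.92).

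In macrophages, barcodes rich in the resident genes Lyve1, Cd163, Folr2 and Mrc1 (at least 0.2% of UMIs) stood lowest, with medians of 9.61% (n = 82) against 14.9% in the other macrophages of 4T1P and 7.50% (n = 21) against 14.1% in 4T1M. Barcodes rich in cell cycle genes had 16.4% (n = 44) and 15.8% (n = 33) against 14.4% and 13.8%, and were shallow, with medians of 1961 and 2580 UMIs. Those rich in Thbs1, Mmp12 and Arg1 had 14.6% (n = 407) and 13.5% (n = 399) against 14.1% and 14.2%, in opposite order in the 2 libraries. Cxcl9-rich macrophages were 17 in each library, with medians of 14.5% and 16.1% against 14.5% and 14.0% in the others. Their pooled shares were lower, 13.7% against 13.8% in 4T1P and 12.7% against 13.5% in 4T1M. Macrophages under 2000 UMIs had 17.6% and 18.5%, above those of 8000 UMIs or more at 13.4% and 12.8%. In neutrophils the medians over the 4 depth ranges lay between 2.09% and 2.74% in 4T1P and between 2.01% and 2.63% in 4T1M. These groups are ranges of a per-barcode share, not cell types.

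**Figure D5:**
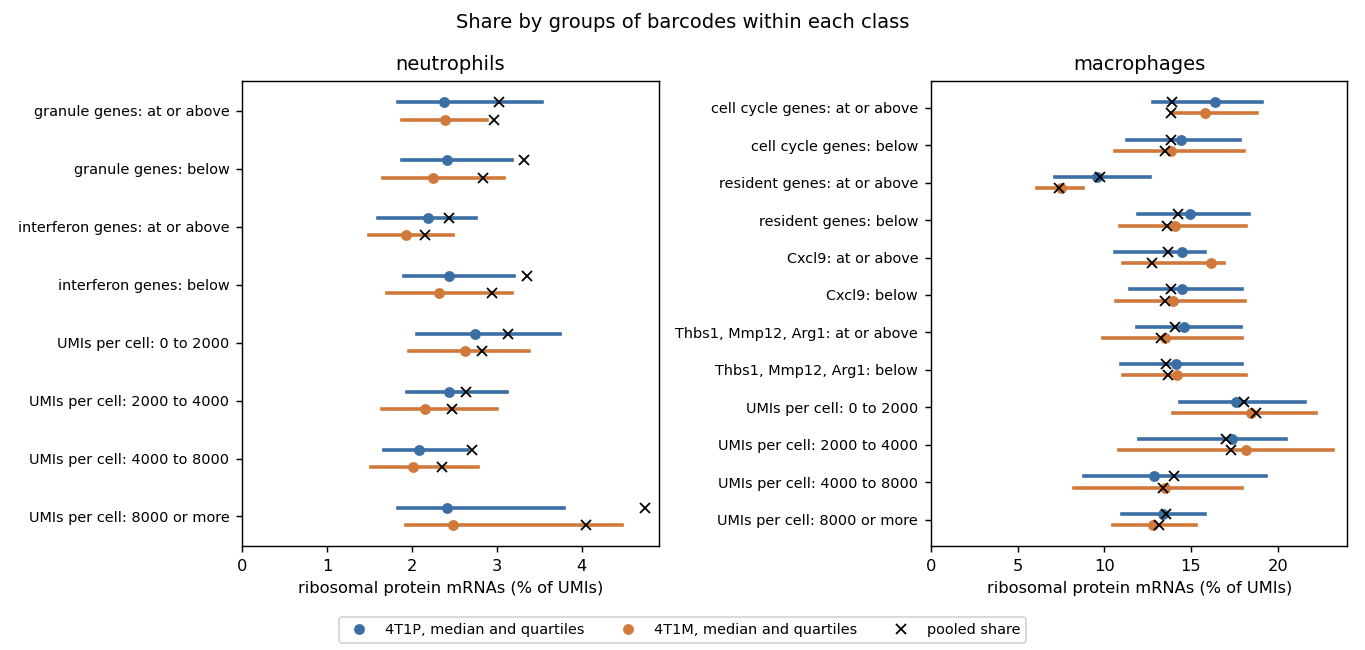
Share of ribosomal protein UMIs (percent) in groups of neutrophils (left) and macrophages (right), in 4T1P (blue) and 4T1M (orange). Points are medians over barcodes, bars the quartiles and crosses the pooled share. Interferon-rich neutrophils lie below the others in both libraries, resident-gene macrophages at 9.61% and 7.50% lie lowest of the macrophage groups, and the pooled share of neutrophils of 8000 UMIs or more (4.74% and 4.05%) lies far above their medians (2.41% and 2.49%).

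Other genes of the translation machinery were read beside the ribosomal proteins. Among all genes of at least 100 CPM, 48.7% in 4T1P and 45.7% in 4T1M were at least 1.5-fold higher in macrophages. As much lower were 28.9% and 30.2%. Of 27 initiation factor genes, 19 had at least 100 CPM, of which 16 were at least 1.5-fold higher in macrophages and 1 lower in each library. Their summed level was also higher in macrophages, with log2 ratios of 0.42 (0.40 to 0.45) and 0.38 (0.36 to 0.40) that turn under TMM scaling. The 1 lower gene was Eif1, which guards start codon choice and had 2858 and 2766 CPM in neutrophils against 1447 and 1407 CPM in macrophages (-0.98 in both). Eif5 was next lowest at -0.49 and -0.58. All 6 elongation factors of that level among 7 were at least 1.5-fold higher in macrophages. Their sum was higher by 2.27 (2.23 to 2.32) and 2.35 (2.32 to 2.38) on the log2 scale. Most of the sum was Eef1a1, the carrier of aminoacyl-tRNA. It had 5719 and 5490 CPM of 8517 and 8078 in macrophages, and 984 and 912 CPM of 1763 and 1580 in neutrophils. The lowest ratios were those of Eif5a (0.69 and 0.66), which turn under TMM scaling, and of Eef1d (1.81 and 2.12). Rack1, a scaffold on the small subunit, was 3.07 and 3.22 higher on the log2 scale. Of 11 other transcripts known for an oligopyrimidine tract, 3 were elongation factors already counted. That level was reached by 10 of the 11, and all 10 were higher, among them Npm1 (2.65 and 2.93) and Btf3 (1.02 and 1.23).

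Of 21 genes of ribosome biogenesis 3 had at least 100 CPM, and Fbl (2.86 and 3.06), Ncl (1.77 and 1.70) and Polr1d (1.71 and 1.72) were higher in macrophages in both libraries. The 12 regulators of oligopyrimidine-tract mRNAs, such as Mtor, Larp1 and the S6 kinases, were low in both classes. Their summed log2 ratio was 0.28 (0.20 to 0.37) and 0.23 (0.17 to 0.29). Eif4ebp1, the mTOR target that holds back Eif4e, had 221 CPM in neutrophils of both libraries against 181 and 178 CPM in macrophages (-0.29 and -0.32). The 78 mitochondrial ribosomal protein genes, which make the separate ribosome of mitochondria, summed to 1390 and 1374 CPM in neutrophils and 3768 and 3670 CPM in macrophages, a log2 ratio of 1.44 (1.39 to 1.49) and 1.42 (1.38 to 1.45). Mrpl33 among them went the other way (-1.05 and -1.18). TMM scaling lowers all of these ratios by the amounts given above and turns those of the initiation factor sum, of the regulator sum and of Eif5a. The counts of listed genes past 1.5-fold were made without this scaling and were not repeated under it. Between 4T1M and 4T1P none of the sums of these lists differed by as much as 1.2-fold in either class. Nor did the pooled ribosomal protein share of neutrophils, 1.15-fold lower in 4T1M. In neutrophils, 2 of 4 elongation factors and 4 of 9 oligopyrimidine-tract transcripts were at least 1.2-fold lower in 4T1M. These lists share genes, and 0 were as much higher. Their medians were both -0.20 on the log2 scale. Of initiation factors, 1 of 7 was lower and 0 higher. Among all genes of at least 100 CPM, 11.7% were lower and 21.8% higher.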

How the data were processed

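UMI counts per gene and barcode were deposited by the authors as made with Cell Ranger 4.0.0 on mm10, per the labels' processing notes, and they are raw counts with no normalization. The study's methods give a later version of Cell Ranger. The labels give 1 library each for 4T1P (non-responding) and 4T1M (responding) tumors, and replicates were not available for any test. Barcodes and classes were filtered as given above, each gene's UMIs were added up over the barcodes of a class in a library, and CPM took all UMIs of the class as the total. Intervals at 95% were exact Poisson, Clopper-Pearson or conditional binomial (scipy 1.17.1, Python 3.11.15). Since cells of 1 library are not replicates and reads were counted by UMI, the intervals cover counting error alone. Genes were counted as past a fold of 1.2 between libraries or 1.5 between classes where one side had at least 100 CPM. The ribosomal protein genes, the other lists and the classes were chosen with earlier results of these data known. Named were the 4 highest and 4 lowest ratios of each comparison, the 3 genes with most UMIs, paralogs with their parents, the stalk proteins and Rpsa, and, of each list of other translation genes, those among the 2 highest and the 2 lowest of at least 100 CPM. Other genes named were picked after their values were seen. Some genes are not reported here by name or drawn, but count in the totals over ribosomal protein genes.

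TMM (edgeR 4.0.16) and DESeq2 1.42.0 size factors (R 4.3.3) served for scaling only. Doublets were not removed from the values reported. The automatic threshold of Scrublet (scanpy 1.11.5) called 1 and 0 barcodes and was not usable. In an alternative the highest scores were therefore removed at a rate of 0.8% per 1000 barcodes, 69 of 2947 and 200 of 5004 barcodes. The rate grows with the number of barcodes, so a larger part of 4T1M was removed. The scores were made from all genes, with ribosomal protein genes included. Other alternatives were a mitochondrial limit of 5%, no upper limit on genes, stricter classes, totals without S100a8 and S100a9 or without mitochondrial UMIs, thinning to 1000 UMIs, and other limits on level. Promoters and starts came from RefSeq (GRCm38.p6) and gene positions from GENCODE M21. The counting steps were tested on simulated data.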

Additional observations from a re-analysis of the deposited data

Results flagged for a closer look

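For Rps21, of the small subunit, the ratio of 4T1M to 4T1P had opposite directions in the classes, with intervals on opposite sides of 0. Its log2 ratio was -0.18 in neutrophils (348 and 307 CPM) and 0.11 in macrophages (1433 and 1546 CPM). The difference between the classes was not tested, since each condition is 1 library. Without the neutrophils of highest doublet score the neutrophil value was -0.01.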

How the results depend on the processing

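The higher ribosomal protein share of macrophages kept its direction under every alternative run. Its log2 ratio, 2.08 in 4T1P and 2.24 in 4T1M, was 2.29 and 2.30 at a mitochondrial limit of 5%, 2.36 and 2.42 with stricter classes, 1.83 and 2.04 without S100a8 and S100a9, 2.11 and 2.28 without mitochondrial UMIs, 1.15 and 1.35 with TMM, 1.003 and 1.23 with DESeq2 scaling, 2.34 and 2.50 after thinning, 2.35 and 2.34 without the highest doublet scores, and 2.12 in 4T1P with no upper limit on genes. Leaving out neutrophils of 8000 UMIs or more, chosen after seeing the data, gave 2.36 and 2.45. Genes lower in macrophages, 0 of 74, were 1 with TMM in 4T1P, 1 with DESeq2 scaling and 1 with no filter on low counts in either library, and those higher ranged from 67 to 80 and from 72 to 78. With DESeq2 scaling 28.9% of all genes in 4T1P and 27.7% in 4T1M were higher, and 49.7% and 51% lower. The macrophage medians were 15.4% and 14.5% at the 5% mitochondrial limit.

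The neutrophil ratio of 4T1M to 4T1P (-0.20) was -0.076 at the 5% limit, -0.17 with no upper limit on genes, -0.055 with stricter classes, -0.25 without S100a8 and S100a9, -0.25 with TMM, -0.25 with DESeq2 scaling, -0.18 after thinning, -0.024 without the highest doublet scores and -0.13 without neutrophils of 8000 UMIs or more. Genes lower (25) were 5 at the 5% limit, 3 with stricter classes, 2 without the highest doublet scores and 8 without the deep neutrophils, but 34 without S100a8 and S100a9, 33 with DESeq2 scaling, 29 with TMM, 26 without mitochondrial UMIs, 26 with no filter, 25 at a limit of 100 UMIs, 19 after thinning and 17 with no upper limit on genes. Genes higher (1) were 2 without the highest doublet scores, 6 with no filter on low counts, 3 at a limit of 100 UMIs, and 0 with stricter classes, with either scaling, without S100a8 and S100a9, without mitochondrial UMIs or without the deep neutrophils. Among all genes, 15.2% with TMM and 15.9% with DESeq2 scaling were lower, and 18.3% with either scaling were higher. For alternatives other than the scalings, in this section, the share over all genes was not counted.

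The macrophage ratio (-0.04) was -0.069 at the 5% limit, -0.055 with no upper limit on genes, -0.044 without mitochondrial UMIs, -0.0070 with TMM, -0.0027 with DESeq2 scaling, -0.020 after thinning, -0.031 without the highest doublet scores, and turned to 0.0042 with stricter classes. Genes higher (0) were 2 after thinning, 1 with no filter and 1 at 100 UMIs. Genes lower (0) were 2 at the 5% limit, 2 with no upper limit on genes, 2 without mitochondrial UMIs, 1 after thinning, 3 with no filter and 1 at 100 UMIs.

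Of 1253 alternative values of named genes, 727 stayed inside the counting interval of the reported value, 495 left it, and 31 turned a value whose interval lay on one side of 0 to the other sign. In neutrophils between libraries, Rpl10a became 0.086 with stricter classes and 0.26 without the highest doublet scores. Rpl22 became 0.033 at the 5% limit, 0.11 with stricter classes, 0.28 after thinning, 0.19 without the highest doublet scores and 0.063 without the deep neutrophils. Rpl3 became 0.14 with stricter classes, 0.088 after thinning and 0.25 without the highest doublet scores. Rplp1 became 0.10 at the 5% limit, 0.16 with stricter classes and 0.14 without the highest doublet scores, and Rpl36al became -0.019 after thinning. In macrophages, Rplp1 became 0.026 with stricter classes, and after thinning Rps27a became 0.026, Rps27l -0.098 and Rps29 -0.041. Between the classes with TMM and DESeq2 scaling, Rps9 became -0.63 and -0.78 in 4T1P and -0.48 and -0.59 in 4T1M, Rps27rt -0.46 and -0.61 in 4T1P and -0.40 and -0.51 in 4T1M, Rpl10 -0.11 and -0.26 in 4T1P, and Rps27 -0.41 and -0.53 in 4T1M. Rps27rt in 4T1P became -0.030 after thinning. In neutrophils between libraries, the values turned by leaving out the highest doublet scores had intervals that excluded 0. So had Rplp1 with stricter classes. The other turned values of that comparison had intervals that included 0. Every value turned by thinning also had an interval that included 0, as had Rpl10 under both scalings. The cause of these changes was not tested.

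No paired analysis was possible because each condition is 1 library. Depth limits the low genes: Rpl39l and Rpl3l rest on 23 and 60 UMIs.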
